A study of Rattus norvegicus with 33 samples.

Results

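Chchd5, Dusp12, Lyplal1, St3gal5, Tom1l1, Htatip2 and Fntb are 7 of the 14506 genes that could be read by a single symbol on arrays of rat soleus. They were selected on their effects at 1 day, higher after electrical stimulation (ES) of paralyzed muscle and lower after overload of intact muscle, so their values at 1 day are given here as a description, with no test. Each of the 7 genes had 1 row in the table of values, and all 7 passed the filter on low values. RNA came from soleus of 33 female Wistar rats, with 1 array per rat and 3 rats in each of 11 groups.

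In the ES experiment, the spinal cord of SCI and SCI-ES rats was cut completely at 9 weeks of age, and Sham-SCI rats had a laminectomy alone. SCI-ES rats were implanted with a stimulator 14 weeks later and the gastrocnemius tendon was cut, and SCI rats received a sham implant and the same tenotomy, so both carried the tenotomy and Sham-SCI rats did not. ES of soleus began 16 weeks after transection and was given daily for 1, 3 or 7 days, whereas SCI rats were killed 21 days after their sham implant, so the time since surgery differed between groups. In the second experiment, rats aged 22 to 23 weeks with an intact spinal cord underwent gastrocnemius ablation (GA), in which the distal insertion of this muscle was cut so that soleus took up its load, or a sham operation (Sham-GA), and soleus was taken at 1, 3 or 7 days. All values are log2 expression, on which 1 unit is a doubling, and levels were compared between groups for 1 gene at a time, never between genes.

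Soleus is a postural muscle made mostly of slow-twitch fibers, which lose their slow character when the spinal cord is cut. The 7 genes form no single pathway. Fntb is part of an enzyme that attaches lipid anchors to signaling proteins, and Lyplal1 is related to enzymes that remove lipid anchors. St3gal5 makes a membrane glycolipid, and Tom1l1 sorts membrane proteins in endosomes. Chchd5 belongs to a family of small proteins of the mitochondrial intermembrane space. Dusp12 is a phosphatase linked to ribosome assembly, and Htatip2 resembles short-chain dehydrogenases. Markers of slow-twitch fibers averaged 11.20 to 13.15 on every array, near the top of the range of values. Within SCI-ES 1 day their mean was 11.20, 12.86 and 11.27 on replicates 1 to 3. Markers of fast-twitch fibers averaged 12.49 to 13.34 on SCI and SCI-ES arrays and 10.40 to 13.11 on Sham-SCI arrays. In the GA experiment the fast-twitch markers averaged 8.27 to 10.66.

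Promoters were taken from RefSeq (assembly GRCr8), where 8 were listed for the 7 genes because St3gal5 had 2. Those of Chchd5 and Lyplal1 are shown because the first held 4 copies of a motif and the second held the least common motif found in any of the 8. Each line gives the 250 bases before the listed start, 5′ to 3′ on the strand of the gene. Capitals mark CCGGAAG, the core bound by ETS factors, on either strand in Chchd5 (chr3:136814857-136815106, plus strand), and the site of NRF1 (GCGCA and GCGC with any 1 base between) in Lyplal1 (chr13:100189335-100189584, minus strand).
Chchd5: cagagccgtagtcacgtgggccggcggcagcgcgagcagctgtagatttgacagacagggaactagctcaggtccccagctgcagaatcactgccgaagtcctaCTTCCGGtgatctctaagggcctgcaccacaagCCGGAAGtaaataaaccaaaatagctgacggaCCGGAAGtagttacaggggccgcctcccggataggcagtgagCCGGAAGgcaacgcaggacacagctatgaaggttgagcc
Lyplal1: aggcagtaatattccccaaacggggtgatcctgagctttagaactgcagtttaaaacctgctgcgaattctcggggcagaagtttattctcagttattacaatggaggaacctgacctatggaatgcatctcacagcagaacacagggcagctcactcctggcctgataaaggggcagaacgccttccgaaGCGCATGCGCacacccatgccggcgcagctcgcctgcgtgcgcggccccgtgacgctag
The Chchd5 promoter held 4 copies of the ETS core, and 7.27% of all 33469 promoters in the table held at least 1. The Lyplal1 promoter held 1 NRF1 site, which 3.75% of all promoters held. Of the other motifs, searched on both strands of the same window, the GC box (GGGCGG, in 30.5% of all promoters) was found in 1 promoter of St3gal5 and in those of Fntb and Tom1l1. CCAAT (34.0%) was found in 1 promoter of St3gal5 and in those of Htatip2 and Fntb. CACGTG (5.59%) was found in that of Chchd5 and TGANTCA (6.34%) in that of Htatip2. TATAAA (12.9%), TGACGTCA (1.59%) and AAGGTCA (3.99%) were in none of the 8 promoters, and that of Dusp12 held none of the 9 motifs. No motif was found in all 7 genes, and a match says only that the letters are present.

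Fntb encodes the beta subunit of protein farnesyltransferase, the enzyme that attaches a farnesyl lipid to Ras and to nuclear lamins. In SCI soleus Fntb was measured at 6.63, 7.25 and 6.43 (replicates 1 to 3), and after 1 day of ES at 8.12, 7.36 and 7.05. After 1 day of GA it was at 5.90, 6.29 and 6.04, against 6.55, 6.58 and 7.31 in Sham-GA. The SCI and SCI-ES values overlapped through the high second SCI array and the lowest SCI-ES array, replicate 3, while every GA array lay below every Sham-GA array. The differences were 0.74 ± 0.247 (SE, n = 3 per group) after ES and -0.74 ± 0.188 after GA. Without SCI-ES 1 day replicate 1 the ES difference was 0.44, and without Sham-GA 1 day replicate 3 the GA difference was -0.49.

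Lyplal1 encodes a serine hydrolase related to the acyl-protein thioesterases, which take palmitate off proteins. Its values were 7.40, 7.85 and 7.47 in SCI and 8.37, 8.05 and 8.20 after 1 day of ES. In Sham-GA at 1 day they were 7.92, 8.08 and 8.15, and after GA 7.19, 7.00 and 7.19. Neither pair of groups overlapped, and the GA arrays were the 3 lowest of all 33. The differences were 0.63 ± 0.157 after ES and -0.92 ± 0.204 after GA, a level 1.90-fold lower and the lowest GA value among the 7 genes.

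St3gal5 encodes GM3 synthase, which adds sialic acid to lactosylceramide to form the ganglioside GM3. It was at 8.71, 8.94 and 8.87 in SCI and at 9.43, 9.16 and 9.49 after 1 day of ES. After 1 day of GA it was at 8.06, 8.21 and 8.10, against 8.44, 8.74 and 8.67 in Sham-GA. The groups of both comparisons were apart. The differences were 0.52 ± 0.112 and -0.49 ± 0.144, nearly equal in size.

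Tom1l1 encodes an adaptor that binds ubiquitin and clathrin on endosomes and is a substrate and regulator of Src family kinases. SCI arrays read 7.00, 7.44 and 7.11 for Tom1l1, and SCI-ES 1 day arrays 8.26, 7.46 and 7.73. Sham-GA 1 day arrays read 6.85, 7.34 and 7.25, and GA 1 day arrays 6.27, 6.26 and 6.33. The GA arrays lay close together and well below their controls, whereas the lowest SCI-ES array was only just above the highest SCI array. The differences were 0.63 ± 0.193 after ES and -0.86 ± 0.186 after GA, and the ES difference was 0.41 without SCI-ES 1 day replicate 1.

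Chchd5 encodes a small protein with the twin CX9C motif of pairs of cysteines, whose relatives are folded in the mitochondrial intermembrane space. It was at 9.36, 9.60 and 9.40 in SCI and at 9.86, 9.84 and 9.75 after 1 day of ES. In the GA experiment it was at 9.95, 10.07 and 9.93 in Sham-GA and at 9.57, 9.16 and 9.41 after 1 day of GA. Both pairs of groups were apart, and 2 of the 3 ES arrays lay within the range of the Sham-SCI arrays, which was 9.77 to 10.05. The ES difference of 0.37 ± 0.116 was the lowest of the 7 genes, and the GA difference was -0.60 ± 0.137.

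Dusp12 encodes a dual specificity phosphatase with a zinc-binding domain whose yeast counterpart acts in assembly of the large ribosomal subunit. Its values were 7.97, 8.10 and 7.78 in SCI and 8.72, 8.41 and 8.72 after 1 day of ES. They were 8.38, 8.73 and 8.47 in Sham-GA at 1 day and 8.26, 7.97 and 7.74 after GA. Neither pair of groups overlapped, although the highest GA array came near the lowest Sham-GA array. The differences were 0.67 ± 0.126 and -0.53 ± 0.153.

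Htatip2, also called TIP30, encodes a protein with the fold of the short-chain dehydrogenases. It was at 7.67, 7.78 and 7.96 in SCI and at 9.23, 7.86 and 8.49 after 1 day of ES. Sham-GA values at 1 day were 9.75, 8.51 and 9.04, and GA values were 8.92, 8.25 and 8.36. The groups overlapped in both comparisons, and replicate 1 was the highest array of SCI-ES, of GA and of Sham-GA at 1 day. The differences were 0.72 ± 0.288 after ES, or 0.37 without SCI-ES 1 day replicate 1, and -0.59 ± 0.267 after GA, or -0.27 without Sham-GA 1 day replicate 1.

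**Figure D1:**
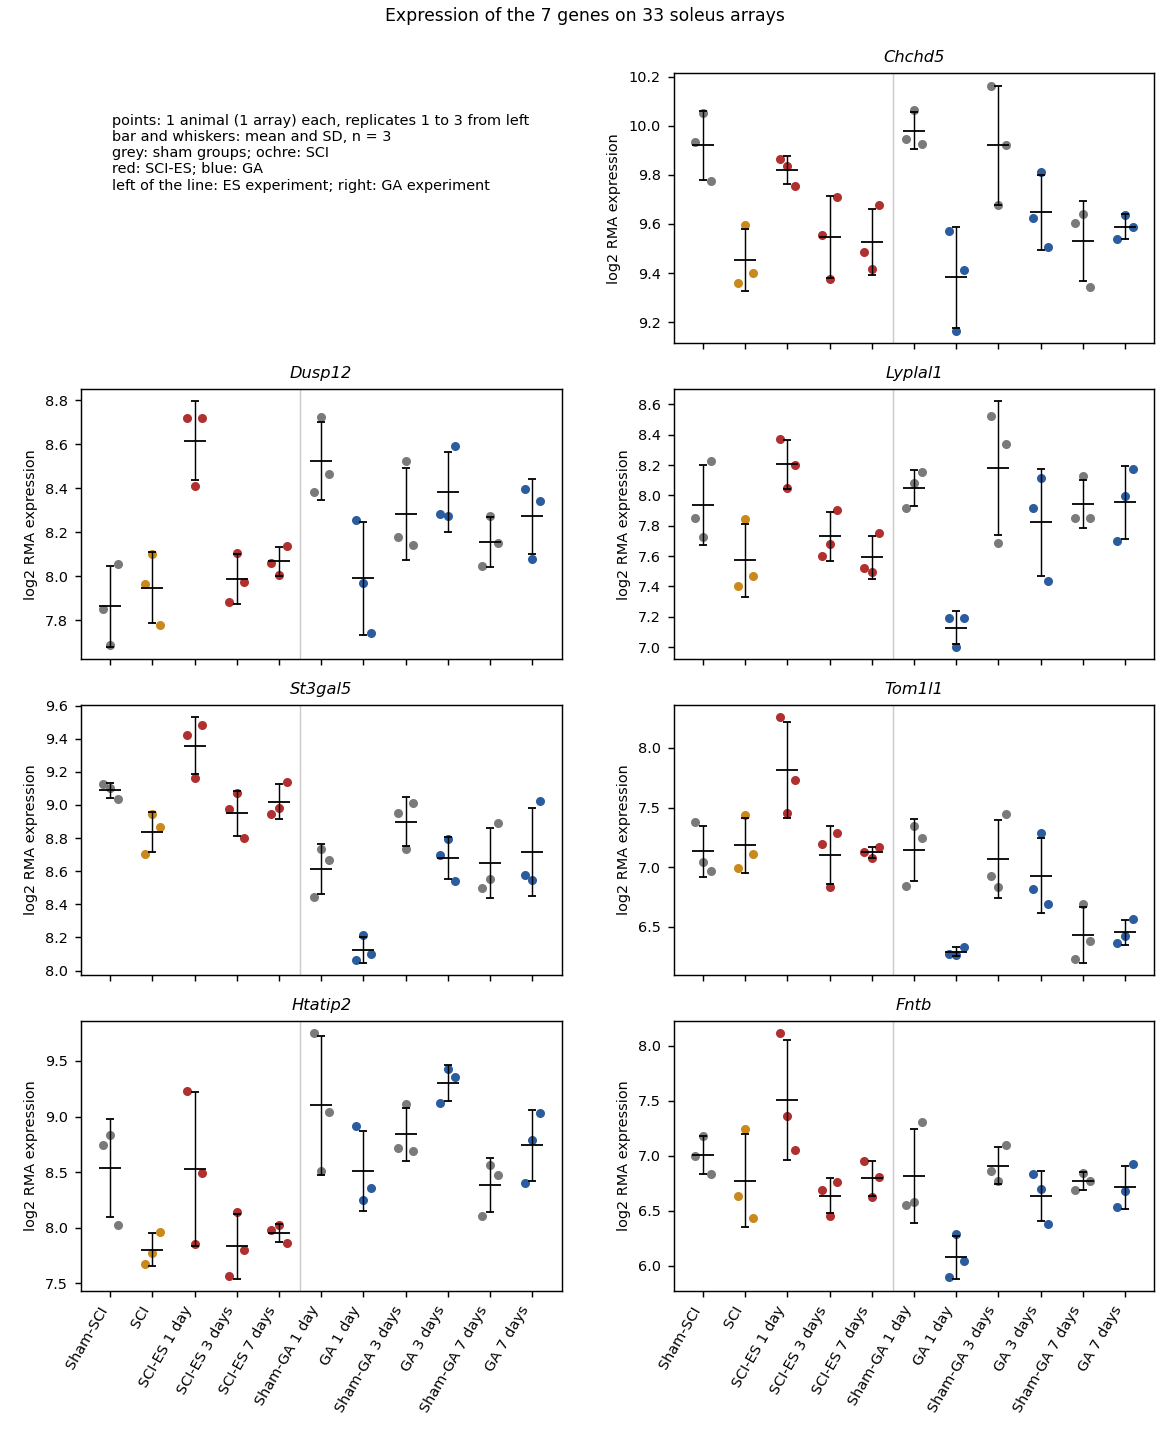
Log2 expression (vertical axes) of each of the 7 genes in the 11 groups of soleus (horizontal axis). Points are single arrays, 3 per group, and bars with whiskers are the mean and SD. For Lyplal1 the 3 GA 1 day arrays lie between 7.00 and 7.19, below all other arrays, and the SCI-ES 1 day mean of 8.21 is the highest of the 11.

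At 1 day the groups did not overlap for 5 of the 7 genes after ES, where 6.02% of all genes were higher without overlap, and for 6 of the 7 after GA, where 11.1% of all genes were lower without overlap. These counts describe the choice of the genes, and nothing is read from them. Over all 14446 genes with both values, 184 (1.27%) were higher after ES and lower after GA with no overlap in either, and 37 (0.256%) had the opposite pattern. The ES difference minus the GA difference ran from 0.96 ± 0.177 for Chchd5 to 1.56 ± 0.267 for Lyplal1 among the 7 genes, and those with the largest errors were 1.32 ± 0.410 for Htatip2 and 1.47 ± 0.318 for Fntb. Some genes outside the 7 had larger effects of both signs, among them Npr3, a receptor that clears natriuretic peptides, at 0.97 and -1.03, which was named after its values were seen.

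**Figure D2:**
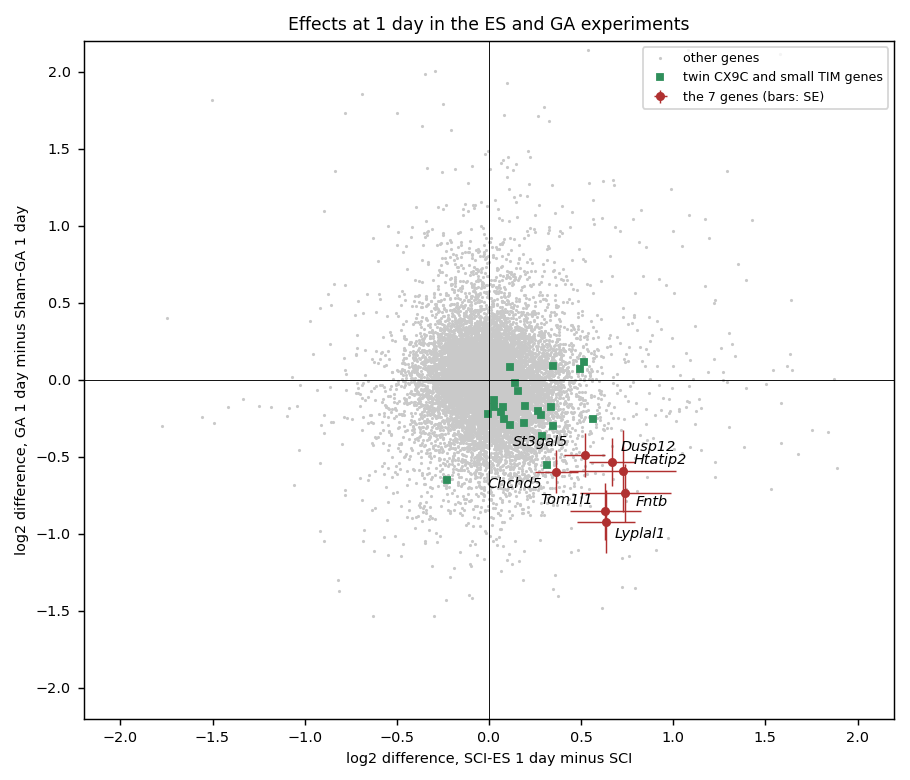
Log2 difference at 1 day after ES (SCI-ES minus SCI, horizontal axis) against that after GA (GA minus Sham-GA, vertical axis), 1 point per gene, with SE bars for the 7 genes and squares for relatives of Chchd5. The 7 genes lie between 0.37 and 0.74 horizontally and between -0.92 and -0.49 vertically, and 7 genes of the table fall outside the axes.

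Arrays that stood apart touched these values. SCI-ES 1 day replicate 1, Sham-GA 1 day replicate 1 and Sham-GA 3 days replicate 2 had the lowest mean correlation with their own group among the arrays of those groups. As for some other arrays, such as SCI replicate 1, the closest array was of another group. It was an SCI array for the first (r = 0.9835), a GA 1 day array for the second (r = 0.9905) and a GA 3 days array for the third (r = 0.9917). With these 3 arrays left out together, an alternative chosen after the data were seen, the ES effect at 1 day minus the GA effect was above 0 in all 7 genes, as it was under every other setting run, and that of Htatip2 was 0.64.

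By 3 days of ES the differences from SCI were small, from -0.13 for Fntb to 0.16 for Lyplal1, and at 7 days they ran from -0.06 for Tom1l1 to 0.18 for St3gal5. All 14 of these 95% intervals held 0 and no groups were apart, as 9.12% of all genes were at 3 days and 7.57% at 7 days. These comparisons share the SCI arrays with the 1 day comparison and carry no test. The arrays of 3 and 7 days of ES were set against each other, with no SCI array in the fit. Differences of 7 from 3 days ran from -0.14 for Lyplal1 to 0.16 for Fntb, none of the 7 genes was called, and all adjusted p values were 1.00. No gene of 14460 was called in this comparison, and 648 (4.48%) had an unadjusted p under 0.05.

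After GA the 3 and 7 day arrays were independent of the choice of genes, and GA was tested against Sham-GA on them. At 3 days 5 of the 7 genes were lower than Sham-GA and Dusp12 and Htatip2 higher, none was called, and the adjusted p values ran from 0.293 to 0.705. No gene of 14439 was called by limma at 3 days, where 2393 (16.6%) had an unadjusted p under 0.05. Lyplal1 was at 8.52, 7.68 and 8.34 in Sham-GA and at 7.91, 8.12 and 7.43 in GA, so that the groups overlapped through the second Sham-GA array, with a difference of -0.36 ± 0.231 (adjusted p = 0.402).

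Dusp12 (0.10 ± 0.142) and Htatip2 were the exceptions in direction at 3 days, and Htatip2 had the larger difference. Htatip2 was at 8.72, 9.12 and 8.69 in Sham-GA at 3 days and at 9.12, 9.43 and 9.36 in GA. All GA arrays lay above all Sham-GA arrays, if narrowly, as they did for 5.87% of all genes. The difference of 0.46 ± 0.187 had an adjusted p of 0.293 by limma, and over 3 and 7 days together the mean difference was 0.41 ± 0.133 (adjusted p = 0.288). No gene was called for this mean by limma, and 2370 of 14439 (16.4%) had an unadjusted p under 0.05.

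At 7 days the GA values differed from Sham-GA by -0.06 for Fntb to 0.36 for Htatip2. The median of the 7 genes was 0.06, against 0.00 over all genes, and 6 of 7 were above 0. None was called, as for all 14439 genes, of which 418 (2.89%) had an unadjusted p under 0.05, and the smallest adjusted p among the 7 was 0.995. In no gene were the groups apart at 7 days, where 11.2% of all genes were apart in either direction.

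Sham-GA 3 days replicate 2 weighed on these results. Its macrophage markers averaged 10.10, against 8.50 and 9.13 in the other Sham-GA 3 days arrays and 9.97 to 10.35 in GA 3 days, and its fibroblast markers 11.15, against 9.40 and 9.82 in the others and 10.79 to 11.34 in GA. Without it, the 3 day GA differences were -0.61 for Lyplal1 (adjusted p = 0.0681), -0.40 for Chchd5 (adjusted p = 0.0749), 0.60 for Htatip2 (adjusted p = 0.0612), -0.34 for Fntb, -0.30 for St3gal5, -0.26 for Tom1l1 and 0.22 for Dusp12. Still none of the 7 was called, while 1695 genes in all then were. The mean Htatip2 difference over 3 and 7 days was then 0.48 (adjusted p = 0.0445), under 1.5 fold and so not called, and 730 genes in all were. Leaving out other arrays instead made some 3 day differences larger and others smaller. That of Fntb went from -0.27 to -0.37 without GA 3 days replicate 1. That of Tom1l1 went from -0.14 to -0.32 without GA 3 days replicate 2. That of Lyplal1 was -0.16 without GA 3 days replicate 3, and that of Chchd5 was -0.15 without Sham-GA 3 days replicate 1. That of Tom1l1 turned to 0.05 without Sham-GA 3 days replicate 3, and that of Htatip2 was 0.38. What part the cells behind these markers had in the values was not tested, and in bulk muscle fewer cells of a type and less RNA per cell cannot be told apart.

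**Figure D3:**
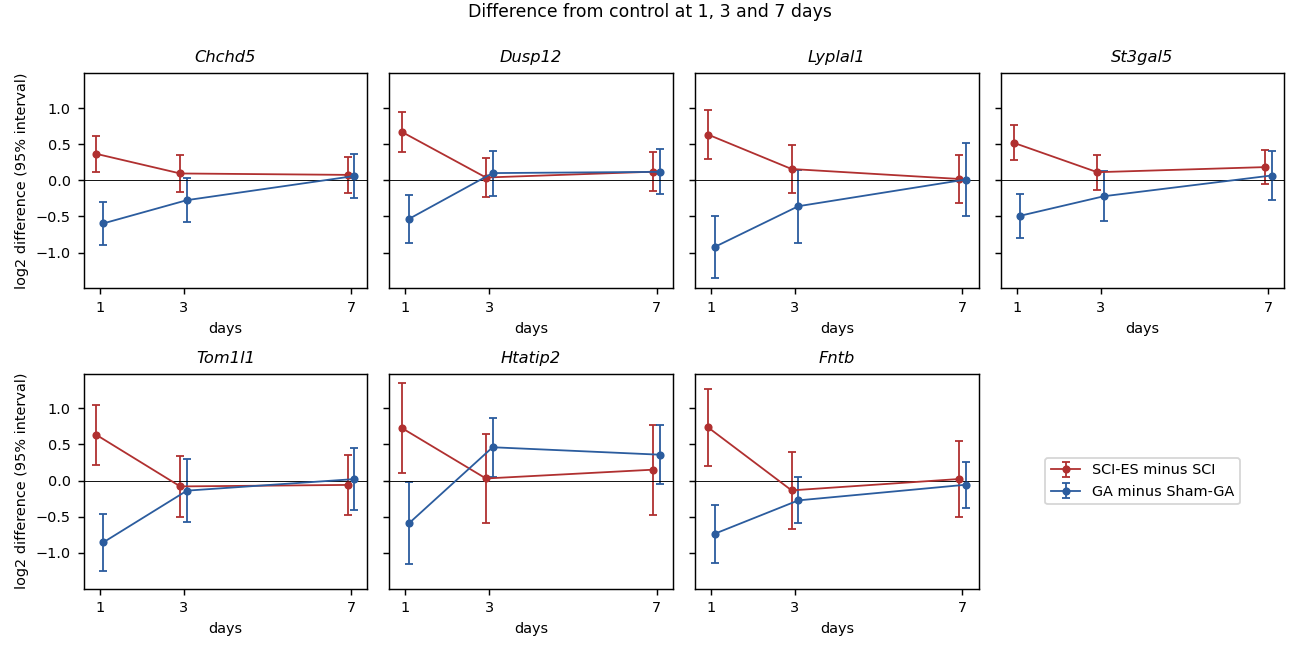
Log2 difference from control (vertical axis, with 95% interval) at 1, 3 and 7 days (horizontal axis) for each of the 7 genes, in red for SCI-ES minus SCI and in blue for GA minus Sham-GA, n = 3 arrays per group. For Lyplal1 the difference goes from 0.63 to 0.02 after ES and from -0.92 to 0.01 after GA, and for Htatip2 the GA difference is -0.59 at 1 day and 0.46 at 3 days.

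Whether the change from 3 to 7 days differed between the experiments was tested on the same arrays. The ES value minus the GA value ran from -0.51 ± 0.360 for Lyplal1 to 0.23 ± 0.366 for Htatip2, and that of Chchd5 was -0.35 ± 0.229. All 7 adjusted p values were 0.994, and no gene of 14449 was called, with 479 (3.32%) at an unadjusted p under 0.05.

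Paralyzed, stimulated soleus was also compared with soleus of Sham-SCI rats, which had an intact cord and no tenotomy. At 3 days of ES 6 of the 7 genes were below Sham-SCI, with a median of -0.21 against -0.03 over all genes, and none was called among 31 genes called in all (0.214%). Chchd5 was at 9.93, 10.05 and 9.77 in Sham-SCI and at 9.56, 9.37 and 9.71 after 3 days of ES, with no overlap and a difference of -0.37 ± 0.125 (limma, adjusted p = 0.187). Fntb, at 7.00, 7.18 and 6.83 against 6.69, 6.46 and 6.76, was the other gene without overlap, with -0.37 ± 0.134 (limma, adjusted p = 0.214). In this comparison 14.6% of all genes were lower without overlap, and 2 of 7 is no clear excess over that. Htatip2 had the lowest difference, -0.70 ± 0.217 (adjusted p = 0.162), with values of 8.75, 8.83 and 8.03 in Sham-SCI and 7.56, 8.14 and 7.80 after ES, which overlapped.

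At 7 days of ES 6 of the 7 genes were again below Sham-SCI, and none was called among 81 genes called in all (0.560%). Chchd5, at 9.49, 9.42 and 9.68, and Htatip2, at 7.98, 8.02 and 7.87, lay wholly below Sham-SCI, as did 12.5% of all genes. Their differences were -0.39 ± 0.125 (adjusted p = 0.178) and -0.58 ± 0.217 (adjusted p = 0.242). Lyplal1 differed by -0.34 ± 0.150 (adjusted p = 0.309), with overlap, and Dusp12, the only one of the 7 above Sham-SCI, by 0.20 ± 0.116. Both comparisons share the Sham-SCI arrays.

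Markers of cells and fibers differed widely in the same comparisons with Sham-SCI. At 7 days of ES all 9 slow-twitch markers were lower, with a median of -1.21, 9 of 10 fast-twitch markers were higher, with a median of 1.14, and all 10 fibroblast markers were higher, with a median of 1.45. The arrays' mean of the slow-twitch markers ran from 12.69 to 13.15 in Sham-SCI and from 11.72 to 11.94 after 7 days of ES, and that of the fibroblast markers from 8.96 to 9.53 and from 9.48 to 11.22. That of the fast-twitch markers was 10.40, 13.11 and 12.04 in Sham-SCI, and 12.99, 12.51 and 13.02 after 7 days of ES, so that Sham-SCI replicate 2 lay above every ES array. Of all marker genes only Scd, a desaturase of fatty acids listed with the adipocyte markers, was called, at 3.31 ± 0.443 (limma, adjusted p = 0.0275). Their part in the values of the 7 genes was not tested.

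SCI itself, with no ES, was lower than Sham-SCI without overlap for Chchd5 (-0.47 ± 0.116), St3gal5 (-0.25 ± 0.112) and Htatip2 (-0.73 ± 0.288), where 13.1% of all genes were. The other differences were -0.36 for Lyplal1, -0.23 for Fntb, 0.05 for Tom1l1 and 0.08 for Dusp12. These values use the SCI arrays of the choice and are given with no test. Set against Sham-SCI, the mean after 1 day of ES was -0.10 for Chchd5 and -0.01 for Htatip2, and 0.27 for Lyplal1, 0.27 for St3gal5, 0.50 for Fntb, 0.68 for Tom1l1 and 0.75 for Dusp12. The means of Chchd5 and Htatip2 were thus near the sham mean, and those of Dusp12, Tom1l1 and Fntb were furthest above it. The Htatip2 arrays were widely spread, from 7.86 to 9.23 after 1 day of ES and from 8.03 to 8.83 in Sham-SCI.

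Ordered by their mean in the 11 groups, 5 of the 7 genes were highest in SCI-ES 1 day (Dusp12, Lyplal1, St3gal5, Tom1l1 and Fntb) and 5 were lowest in GA 1 day (Chchd5, Lyplal1, St3gal5, Tom1l1 and Fntb). Chchd5 was highest in Sham-GA 1 day (9.98 ± 0.076, SD, n = 3), Dusp12 lowest in Sham-SCI (7.86 ± 0.185), and Htatip2 highest in GA 3 days (9.30 ± 0.161) and lowest in SCI (7.80 ± 0.146). Most neighbours in these orders could not be told apart. Of 10 neighbouring pairs of groups, none had separate ranges for Chchd5 and Dusp12, 1 for Fntb, Lyplal1 and Htatip2, and 2 for St3gal5 and Tom1l1.

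The separate neighbours lay mostly at the ends. For Lyplal1, GA 1 day (7.13 ± 0.111) was set off from SCI (7.57 ± 0.239), the next group up. For Fntb, GA 1 day (6.08 ± 0.196) was set off from GA 3 days (6.63 ± 0.230). For St3gal5, GA 1 day (8.13 ± 0.078) was set off from Sham-GA 1 day (8.62 ± 0.152), and SCI-ES 1 day (9.36 ± 0.172) from Sham-SCI (9.09 ± 0.046). For Tom1l1, SCI-ES 1 day (7.82 ± 0.406) was set off from SCI (7.18 ± 0.230), and GA 7 days (6.45 ± 0.105) from GA 3 days (6.93 ± 0.315).

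Tom1l1 differed from the other genes at that low end, since both 7 day groups of the GA experiment stood beside GA 1 day (6.29 ± 0.038). It was at 6.23, 6.69 and 6.38 in Sham-GA 7 days and at 6.36, 6.43 and 6.57 in GA 7 days. The difference between them was 0.02 ± 0.196 (95% interval -0.41 to 0.45). For Htatip2 the break lay in the middle, with Sham-GA 7 days (8.38 ± 0.243) set off from SCI-ES 7 days (7.95 ± 0.081), so that SCI, SCI-ES 3 days and SCI-ES 7 days were the 3 lowest groups.

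Likeness of pattern was measured by Pearson's r over the 33 arrays, after the mean of each experiment was subtracted, and it describes arrays that share their groups and includes those used to choose the genes. Among the 7 genes r ran from 0.315 for Htatip2 and Lyplal1 to 0.802 for St3gal5 and Lyplal1. Lyplal1 was the gene most like St3gal5 of all genes, followed by Fuca2, a fucosidase (r = 0.784).

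The genes most like Chchd5 were Mrpl30 (r = 0.905) and Mrpl13 (r = 0.894), both of the large subunit of the mitochondrial ribosome. Lyplal1 was most like Uros, an enzyme of heme synthesis (r = 0.858), and Ccndbp1, which binds cyclin D (r = 0.849). For Tom1l1 they were Elp2, a subunit of Elongator (r = 0.875), and Tomm34, which acts in import into mitochondria (r = 0.832).

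Htatip2 was most like Rala, a small GTPase (r = 0.862), and Atic, of purine synthesis (r = 0.836). Fntb was most like Scx, a transcription factor of tendon (r = 0.825), and Tmco3, a membrane protein (r = 0.822). Dusp12 had the weakest likeness, with Eef1g, of translation elongation (r = 0.718), and Hmox2, a heme oxygenase (r = 0.711). At 1 day each of these genes outside the 7 was above 0 after ES, from 0.18 for Eef1g to 0.83 for Scx. Each was below 0 after GA, from -1.04 for Fuca2 to -0.13 for Rala, which turned to 0.04 without Sham-GA 1 day replicate 1. Their choice by likeness over arrays that include those of 1 day favors shared signs, and nothing is read from them. The Scx value after ES was 0.35 without SCI-ES 1 day replicate 1.

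Genes related to each of the 7 by family or pathway, with the 7 left out, were read in 9 lists. None of their genes was called at 1 day in either experiment or in the difference between them. Over all genes limma called 0 after ES, where 1053 (7.28%) had an unadjusted p under 0.05, 8 after GA (0.0554%) and 8 in the difference (0.0554%). Each list is given by its counts and its median beside those of all genes tested, of which 49.1% were above 0 after 1 day of ES and 51.8% below 0 after 1 day of GA, with medians of -0.00 and -0.01.

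Genes listed with Chchd5, mostly twin CX9C and small TIM proteins of the intermembrane space, leaned the same way as Chchd5 at 1 day. The list also held Gfer and Aifm1, which are of neither family, and Chchd2 was read as Chchd2l3. After 1 day of ES 21 of 23 measured were above 0, with a median of 0.19, from -0.23 ± 0.279 for Chchd3, a part of the cristae junction complex, to 0.56 ± 0.210 for Timm10, a chaperone of carrier import. After 1 day of GA 19 of 23 were below 0, with a median of -0.20, from -0.65 ± 0.242 for Chchd3 to 0.11 ± 0.138 for Timm13. Without SCI-ES 1 day replicate 1 the Chchd3 value after ES was 0.12. At 3 days of GA 21 of 23 were below 0, with a median of -0.28 against -0.03 over all genes and none called, and the lowest was Chchd10 at -1.11 ± 0.389 (limma, adjusted p = 0.293). At 7 days of GA 13 of 23 were above 0, with a median of 0.00.

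Relatives of Fntb in protein prenylation add, carry or process isoprenoid lipids. After 1 day of ES 13 of 17 were above 0, with a median of 0.13, and after 1 day of GA 13 of 17 were below 0, with a median of -0.19. The ends after GA were Pde6d, which carries prenylated proteins, at -0.70 ± 0.165 and Idi1, an isomerase of isoprenoid synthesis, at 0.64 ± 0.365. Proteins that receive the farnesyl group showed no such balance, with 9 of 19 above 0 after ES, from Ptp4a3 at -0.33 (0.044 without SCI-ES 1 day replicate 1) to Phka1 at 1.15, and 11 of 19 above 0 after GA, from Pex19 at -0.58 (-0.28 without Sham-GA 1 day replicate 3) to Rnd1 at 0.86. At 3 days of ES 16 of the 17 prenylation genes were below Sham-SCI, with a median of -0.17 and none called. Of all genes 56.1% were below Sham-SCI there, with a median of -0.03.

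In the palmitoylation cycle around Lyplal1, 20 of 27 genes were above 0 after ES, with a median of 0.12, and 13 of 27 after GA, with a median of -0.00. After GA the acyltransferase genes stood at both ends, with Zdhhc4 at -0.61 ± 0.158 and Zdhhc18 at 0.93 ± 0.229. The ganglioside genes around St3gal5 were spread about 0 in both, with medians of -0.04 and 0.05 over 24 genes. Cmas, which activates the sialic acid that St3gal5 transfers, was the lowest of them after GA at -0.59 ± 0.173.

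In endosomal sorting, the field of Tom1l1, 22 of 28 genes were above 0 after ES, with a median of 0.11, and 13 of 28 after GA, with a median of -0.02. Its relative Tom1l2 was the lowest of this list after GA, at -0.50 ± 0.255. The Src family kinases and their regulators had the signs opposite to Tom1l1, with 7 of 11 below 0 after ES (median -0.08) and 9 of 11 above 0 after GA (median 0.36), up to 1.03 ± 0.464 for Lyn, a kinase of blood cells.

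Other dual specificity phosphatases did not share the signs of Dusp12, with 9 of 24 above 0 after ES and 13 of 24 after GA. After ES the lowest was Dusp1, a phosphatase of MAP kinases, at -0.87 ± 0.413, or -0.34 without SCI-ES 1 day replicate 1, and after GA the ends were Dusp19 at -0.78 ± 0.165 and Dusp10 at 0.95 ± 0.310. Among the atypical short-chain dehydrogenases around Htatip2, 4 of 10 were above 0 after ES, with a median of -0.03, and 7 of 10 were below 0 after GA, with a median of -0.32 and Blvrb, a biliverdin reductase, lowest at -0.62 ± 0.145.

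**Figure D4:**
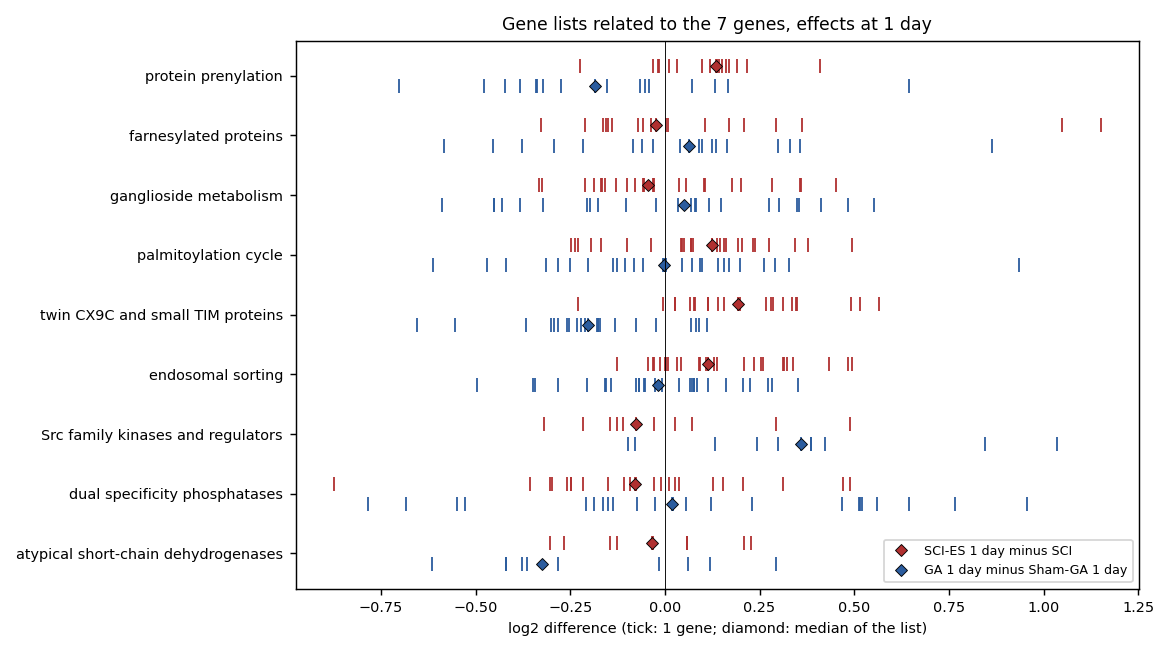
Log2 differences at 1 day (horizontal axis) of the genes of 9 related lists (rows), in red for SCI-ES minus SCI and in blue for GA minus Sham-GA. Ticks are single genes and diamonds are list medians. These are 0.19 after ES and -0.20 after GA for the twin CX9C and small TIM list. For the Src family kinases and regulators they are -0.08 and 0.36.

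Markers of other cells moved at 1 day beside the 7 genes. After ES all 4 red blood cell markers (median 1.27) and all 8 neutrophil markers (0.40) were above SCI, while 9 of 10 fibroblast markers (-0.54), all 9 endothelial markers (-0.39) and all 9 pericyte and smooth muscle markers (-0.28) were below it. The mean of the red blood cell markers ran from 7.92 to 10.07 over SCI arrays and from 9.48 to 10.87 over SCI-ES 1 day arrays, the highest being replicate 1, in which 6 of the 7 genes (all but St3gal5) were also highest of their group. That of the endothelial markers ran from 8.25 to 8.78 in SCI and from 7.62 to 8.47 in SCI-ES 1 day. After GA all 8 neutrophil markers (median 0.66) and 11 of 14 macrophage markers (0.54) were above Sham-GA. The mean of the macrophage markers was 9.96, 8.76 and 8.93 in Sham-GA 1 day and 9.92, 9.42 and 9.53 in GA 1 day. Sham-GA 1 day replicate 1 thus lay above every GA 1 day array for these markers. The mean of the neutrophil markers ran from 5.27 to 6.88 in Sham-GA 1 day, where replicate 1 was highest, and from 6.33 to 7.30 in GA 1 day. Of these, S100a8 was near the bottom of all genes, with a mean of 3.92 over the 33 arrays. Genes listed as satellite cell markers had the sign of the 7 genes in the difference between the experiments. Of these, 7 of 7 were above 0, as 50.6% of all genes were, with a median of 0.58. The highest was Chrna1, a subunit of the acetylcholine receptor of the motor endplate, at 1.90 ± 0.847. The list is thus not specific to satellite cells, and Pax7 was not among the genes read. Its array means overlapped, from 7.90 to 9.37 in SCI and from 8.41 to 9.51 in SCI-ES 1 day. They also overlapped between Sham-GA 1 day (8.00 to 8.51) and GA 1 day (7.74 to 8.10). None of these marker genes was called at 1 day, and their part in the values of the 7 genes was not tested.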

How the data were processed

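RNA of 33 soleus muscles was measured on Affymetrix rat arrays, 1 per animal. The deposited values are log2 expression made by the authors with RMA in the oligo package (versions not given in the sources used here), that is background correction, quantile normalization and median polish. Groups were taken from the sample titles. For ES the series text has 1, 2 and 7 days where titles and methods have 1, 3 and 7, and for GA it has bilateral surgery where the methods have the left hindlimb. Of 29214 rows, 15310 carried 1 symbol (14506 genes), 323 several and 13581 none, and the last 2 kinds were left out. For each of 527 genes with more than 1 row the brightest was used.

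Group means were fitted with limma 3.58.1 (lmFit and eBayes, R 4.3.3) to genes with a mean of at least 3, and p-values were adjusted by Benjamini-Hochberg over all genes tested. A call needed an adjusted p under 0.05 and 1.5 fold. The 7 genes were tested only on arrays outside their choice, which were Sham-SCI, SCI-ES 3 and 7 days, and GA and Sham-GA 3 and 7 days, while counts of calls over all genes and over lists were also made at 1 day. Groups were called apart, or not overlapping, where the lowest array of one lay above the highest of the other. Intervals are 95% intervals of the fit. The scripts were tested on simulated data.

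The 7 genes and the lists were chosen with earlier results of these data known. Named were the 7 genes, the called genes or else the ends of each list, and the genes most like each of the 7, apart from Npr3 and S100a8, named after their values were seen. The settings varied were the filters on dim and on invariant rows, the fold minimum, the mean of a gene's rows, a further quantile normalization, a trended robust prior, all 33 arrays in 1 fit, the replicate number as a block, and leaving out arrays. Arrays give no read depth, and 3 animals per group limit the precision. Python 3.11.15 (numpy 2.4.6, pandas 2.3.3, matplotlib 3.10.9) drew the figures.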

Additional observations from a re-analysis of the deposited data

How the results depend on the processing

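At 1 day the ES differences of the 7 genes stayed above 0 and the GA differences below 0 under all settings run, with 0.30 and -0.27 nearest to 0. The difference between them was 0.64 to 1.71, and was 0.80 for Chchd5 with quantile normalization again and 1.17 for Fntb without SCI-ES 1 day replicate 1. In the tested comparisons 862 values of the 7 genes gave 39 changes of sign in 17 results, none beyond 1 SE, and no call. Among list ends, Chmp6 after 1 day of ES turned to 0.010 with the mean of all rows, and Ptp4a3 ran from -0.63 to 0.044 with each array left out in turn and was at 0.044 without the 3 arrays that stood apart. Of 62 values at 1 day of genes outside the 7, with each array left out in turn, 33 moved by over 1.5 times and 4 changed sign (Chchd3 and Ptp4a3 after ES, Rala and Ptpra after GA). Counts over all genes moved more, and the causes were not tested.

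With each array left out in turn, the genes called were 0 to 1695 for GA 3 days, 0 to 730 for the mean GA effect (in both the highest without Sham-GA 3 days replicate 2), 0 to 52 and 1 to 339 for SCI-ES 3 and 7 days against Sham-SCI (31 and 81 with all arrays), 0 to 2 for the difference in change from 3 to 7 days, 0 to 27 for SCI-ES 1 day against SCI (0), 1 to 182 for GA 1 day (8), 1 to 102 for the difference at 1 day (8) and 5 to 65 for SCI against Sham-SCI (58). Without the 3 arrays that stood apart they were 1695 for GA 3 days, 730 for the mean GA effect, 694 for GA 1 day and 210 for the difference at 1 day. All 33 arrays in 1 fit gave 192, 187, 3, 81 and 142 for SCI-ES 3 days and 7 days against Sham-SCI, SCI-ES 1 day, GA 1 day and SCI. The filter on invariant rows gave 64 for SCI-ES 3 days against Sham-SCI and 93 for SCI, and quantile normalization again gave 13 for GA 1 day.

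The replicate numbers were not treated as pairs in the main fit. The correlation of same-numbered deviations ran from -0.718 to 0.668 over 30 pairs, and in none of 10 comparisons were all pairs over 0.1. Between SCI-ES 7 and 3 days it was -0.0188, 0.668 and 0.594 for replicates 1 to 3. Such deviations from a mean of 3 arrays cannot exclude an effect shared by some same-numbered arrays. With the replicate block 175 and 232 genes were called for SCI-ES 3 and 7 days against Sham-SCI, 1 for GA 1 day and 26 for SCI, and none of the 7 genes was called in a tested comparison. The difference at 1 day already used all 33 arrays, so that setting gave it no further value.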
